A study of Homo sapiens with 12 samples.

Results

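The combined treatment of T47D cells with anastrozole and estradiol (E2) was compared with vehicle, using 6 of the 12 RNA-seq libraries of the study, 3 labelled anastrozole plus E2 and 3 labelled vehicle, with replicate letters a, b and c in each group. All 25370 gene rows of the count table were taken, and the 21132 genes with at least 1 read in any of the 12 libraries were tested. T47D is an established, ER-positive human breast cancer cell line, and every group shared the same preparation, 48 h in medium with 5% charcoal-stripped serum and then 24 h without serum. The combination held 10 nM anastrozole and 0.1 nM E2, vehicle held neither, and the other 2 groups, used here only to place the combination, held 10 nM anastrozole alone or 0.1 nM E2 alone. The labels give 12 h of treatment while the methods of the study describe 1 day, so the time is not settled. The comparison asks what the drug and a low dose of the hormone do together to gene expression. The model is 1 cell line, and nothing in the labels says that the letters are separate cultures, so the p-values measure the spread between these libraries, which may be technical.

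E2 binds the estrogen receptor, which then acts on estrogen response elements near or far from its target genes, among them growth regulators such as MYC and the receptor cofactor gene GREB1. Anastrozole blocks aromatase, the product of CYP19A1, which converts androgens to estrogens, and is not itself a steroid. Zinc is imported into the cytosol by the ZIP transporters (SLC39 genes), exported from it by the ZnT transporters (SLC30 genes) and buffered by metallothioneins, and the metal-sensing factor MTF1 activates metallothionein genes and SLC30A1 through metal response elements when zinc is high.

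Reads counted on genes numbered 12383933, 13146717 and 12839630 in the vehicle libraries and 16158706, 14352011 and 13944949 in those of the combination, from 32.7% to 33.5% of each library's reported reads in these 6. A count of 3 reads, used here as the floor of detection, corresponds to between 0.185 and 0.243 CPM (reads on a gene per 1e6 reads on all genes, with libraries scaled by TMM) in these libraries, a limit from counting error alone. Of the 12 luminal epithelial markers on the list, all 12 averaged at least 3 log2 CPM, while 10 of 22 markers of fibroblasts, endothelium, leukocytes, adipocytes and basal cells had at most 3 reads in any of the 6 libraries. Those markers summed to between 112.8 and 121.4 CPM with vehicle and between 122.8 and 129.3 CPM with the combination, most of it from COL1A1 (94.02 ± 2.17 and 97.8 ± 2.82 CPM, SD, n = 3). No marker of that list was at 0 in all 6 libraries, and those outside the 10 had more than 3 reads in at least 1 library. PECAM1, CDH5 and PTPRC had no read in any library of the combination but had reads with vehicle. COL1A2 had none with vehicle but had reads with the combination. ACTA2, which encodes smooth muscle actin, was the 1 marker of that list past the threshold, at 7.85, 9.73 and 9.02 CPM with vehicle and 10.7, 11.4 and 12.5 CPM with the combination (0.37, adjusted p = 0.022 in edgeR), and this call was lost with DESeq2, with limma-voom, without vehicle replicate a or c and without replicate b or c of the combination, with log2 fold changes from 0.30 to 0.45 over the 17 alternatives. CYP19A1 had 0 reads in the 3 vehicle libraries and 2, 0 and 2 reads with the combination, all at or under the floor.

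With an adjusted p under 0.05 in edgeR's quasi-likelihood test (Benjamini-Hochberg over all 21132 genes), 1065 genes passed for the combination against vehicle, which is 5.04% of those tested. Of these, 573 were raised (2.71% of genes tested) and 492 were lowered (2.33%). The median size among the 1065 genes was 0.23 on the log2 scale, with quartiles of 0.16 and 0.36, and 43 of those that averaged 3 log2 CPM or more changed by 0.5 or more. Among the 11063 genes averaging at least 3 log2 CPM, 8.4% passed. Ranges of CPM that did not overlap between the 3 vehicle and 3 combination libraries occurred in 3906 genes, 18.5% of those tested. The median log2 fold change over all tested genes was 0.00. The number of genes past the threshold was 463 with DESeq2 and 347 with limma-voom, and it fell to 682 without replicate b and 686 without replicate c of the combination. Libraries of this series also differ in how their counts depend on the GC content of transcripts, and for the combination against vehicle the log2 fold changes of 10875 genes had a Spearman's rho of -0.03 with GC content, against 0.68 for the combination against E2 and 0.56 against anastrozole, across genes, which are not independent replicates. Calls in the direct comparisons with the single treatments are therefore also given with the GC trend of each library removed.

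**Figure D1:**
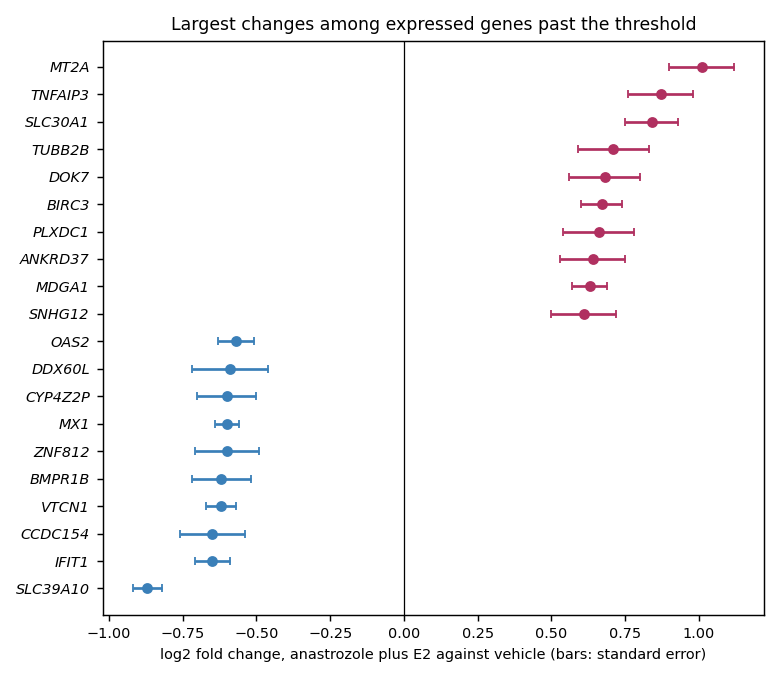
Log2 fold change (x axis) of the 10 genes most raised and the 10 most lowered by anastrozole plus E2 against vehicle (y axis), among genes past the threshold that averaged 3 log2 CPM or more and whose groups do not overlap. Points are the edgeR estimates and bars their standard errors, and the values run from -0.87 for SLC39A10 to 1.01 for MT2A, both of which belong to zinc handling.

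The genes with the largest changes in each direction act in the handling of zinc. MT2A, a metallothionein gene that encodes a small cysteine-rich protein binding zinc and copper, was raised most, and SLC39A10, which encodes the zinc importer ZIP10, was lowered most, among genes that averaged 3 log2 CPM or more. SLC30A1, which encodes ZnT1, the zinc exporter of the plasma membrane, rose as well. MT2A (ENSG00000125148, chromosome 16 from 56642496 to 56643409 of GRCh37) stood at 8.25, 6.92 and 9.18 CPM in vehicle replicates a, b and c and at 16.7, 15.3 and 16.9 CPM with the combination. Every library of the combination was above every vehicle library, a 2.01-fold difference or 1.01 on the log2 scale (standard error 0.11, adjusted p = 3e-18 in edgeR). In bulk RNA, a change in every cell and a larger change in some cells cannot be told apart. With anastrozole alone MT2A had 9.304, 9.5 and 9.77 CPM and with E2 alone 8.91, 8.802 and 6.73 CPM, so neither single treatment reached the lowest library of the combination. On the log2 scale the combination was higher than E2 by 1.0 (adjusted p = 6.5e-18, standard error 0.10) and higher than anastrozole by 0.78 (adjusted p = 3.2e-09, standard error 0.11).

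SLC30A1 (ENSG00000170385, chromosome 1 from 211744910 to 211752503) had 13.1, 12.3 and 13.7 CPM with vehicle and 22.8, 25.3 and 21.9 CPM with the combination. The groups did not overlap, with a change of 0.84 ± 0.09 (log2 ± SE, adjusted p = 2.5e-17 in edgeR). The single treatments lay between, at 15.6, 16.98 and 17.1 CPM with anastrozole and 19.1, 17.7 and 18.9 CPM with E2. The combination was higher than E2 by 0.33 (adjusted p = 0.00096) and higher than anastrozole by 0.50 (adjusted p = 1.2e-05) on the log2 scale. SLC39A10 (ENSG00000196950, chromosome 2 from 196440701 to 196602426) moved the other way, from 66.97, 71.9 and 69.1 CPM with vehicle to 35.5, 41.6 and 36.7 CPM with the combination, a change of -0.87 ± 0.05 (log2 ± SE, adjusted p = 3.3e-53 in edgeR). Its 3 libraries of the combination were the lowest of the 12, since anastrozole gave 65.3, 58.01 and 56.1 CPM and E2 72.6, 70.9 and 73.4 CPM. The direct log2 differences were -0.93 against E2 (adjusted p = 9.6e-63) and -0.66 against anastrozole (adjusted p = 6.5e-19).

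Most other zinc transporter genes did not pass. Of 24 ZIP and ZnT genes, 23 were tested, 1 was raised and 3 were lowered (beside 2.71% and 2.33% of all genes tested), and their median log2 fold change was -0.06. Besides SLC39A10, the lowered ones were SLC39A1 (ZIP1, -0.17, adjusted p = 0.00038) and SLC39A7 (ZIP7 of the endoplasmic reticulum, -0.11, adjusted p = 0.047), and the call of SLC39A7 was lost in 11 of the 17 alternatives. SLC39A6, the ZIP transporter known as an estrogen-regulated gene of luminal breast tumours, had 141, 141 and 144 CPM with vehicle and 134, 136 and 137 CPM with the combination and did not pass (adjusted p = 0.52), and was chosen after its values were seen. SLC30A10 had no read in the 6 libraries and SLC39A12 none in any of the 12.

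The promoters of the 2 raised zinc genes are shown because the metal response element is the sequence through which MTF1 acts; these genes were chosen for display after their values were seen. The sequences are RefSeq's, on GRCh38.p14 and not on the build used for the gene positions above, from 250 bases before to 50 after the start site, written 5′ to 3′ on the strand of the gene. Capitals mark every match to the metal response element core, TGCACNC or TGCGCNC, on either strand, where overlapping matches run together.
MT2A, chr16:56608334-56608633, plus strand: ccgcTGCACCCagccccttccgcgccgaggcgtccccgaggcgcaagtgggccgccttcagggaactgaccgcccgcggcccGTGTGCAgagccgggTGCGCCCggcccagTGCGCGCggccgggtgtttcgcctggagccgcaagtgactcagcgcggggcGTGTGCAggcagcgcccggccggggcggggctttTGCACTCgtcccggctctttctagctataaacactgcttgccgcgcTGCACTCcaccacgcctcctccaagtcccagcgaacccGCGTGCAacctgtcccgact
SLC30A1, chr1:211579112-211579411, minus strand: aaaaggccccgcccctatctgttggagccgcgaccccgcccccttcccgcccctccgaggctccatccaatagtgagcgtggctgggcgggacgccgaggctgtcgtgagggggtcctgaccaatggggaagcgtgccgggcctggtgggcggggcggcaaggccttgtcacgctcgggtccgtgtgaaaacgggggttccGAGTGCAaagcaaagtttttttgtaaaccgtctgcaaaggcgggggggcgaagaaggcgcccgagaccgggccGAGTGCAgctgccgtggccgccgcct
The MT2A promoter held 8 matches, the nearest before the start site at positions -8 to -2, and the SLC30A1 promoter held 2, at positions -49 to -43 and 25 to 31, counted from the start site at 1 with no position 0. At least 1 match to either form occurred in 29.5% of the 35114 promoters of the table, so that a match is a description of the sequence and not evidence of a site.

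A gene can differ from vehicle with the combination and be no different from either single treatment, so the combination was tested directly against each. Against E2, 1424 genes passed (6.74% of those tested), 3.23% higher and 3.51% lower with the combination, and against anastrozole 612 passed (2.9%), 1.71% higher and 1.18% lower. With the GC trend removed, 175 passed against E2 (0.828%, with 0.431% higher and 0.398% lower) and 457 against anastrozole (2.16%, with 1.16% higher and 1% lower), so the count against E2 turned on how GC content was treated. With the GC trend kept, the count against E2 was 885 without E2 replicate c and 935 without replicate c of the combination. Without anastrozole replicate c the count against anastrozole was 1706, and without replicate c of the combination it was 234. The genes past the threshold in the same direction against vehicle, E2 and anastrozole, and averaging 3 log2 CPM or more, numbered 88, of which 46 were higher and 42 lower with the combination. With the GC trend removed from all 3 comparisons, 16 of the 88 remained, 10 higher and 6 lower. The 3 comparisons share the libraries of the combination, so a library of the combination that stands apart enters all 3.

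By the size of their smallest difference, the leading genes of the 88 were MT2A, SLC39A10, DOK7, CSRP1, BMPR1B, SLC30A1, PRRT3, CHCHD10, ZNF496 and CAB39L. Of these 10, MT2A, SLC39A10, CSRP1, SLC30A1, ZNF496 and CAB39L kept all 3 calls with the GC trend removed. CSRP1, which encodes a LIM-domain protein bound to the actin cytoskeleton, had 60.7, 55.7 and 57.02 CPM with vehicle and 86.3, 82.4 and 90.0 CPM with the combination. Anastrozole gave 62.7, 64.3 and 61.2 CPM and E2 69.4, 65.7 and 63.9 CPM, so the 3 libraries of the combination were the highest of the 12. The log2 fold change was 0.58 against vehicle (standard error 0.05, adjusted p = 8.8e-28 in edgeR), 0.38 against E2 (adjusted p = 1.1e-13) and 0.46 against anastrozole (adjusted p = 9.9e-13).

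ZNF496, a zinc finger protein gene, had 18.7, 16.3 and 15.9 CPM with vehicle and 20.2, 23.7 and 21.7 CPM with the combination, and its log2 fold changes were 0.36 against vehicle, 0.35 against E2 and 0.31 against anastrozole (adjusted p = 0.0015, 0.00086 and 0.025 in edgeR). CAB39L, which encodes a scaffold of the kinase LKB1, fell from 43.3, 44.6 and 39.9 CPM to 33.1, 36.1 and 34.7 CPM, with log2 fold changes of -0.30, -0.32 and -0.30 (adjusted p = 0.00014, 6.5e-05 and 0.0026). Both were close to their vehicle level in the single treatments, ZNF496 at 17.8 ± 3.14 and 17.2 ± 0.668 CPM and CAB39L at 42.5 ± 3.49 and 43.1 ± 1.36 CPM (SD, n = 3) with anastrozole and with E2. The call of ZNF496 against vehicle was lost with DESeq2 and limma-voom, and that of CAB39L with limma-voom. Against anastrozole, the call of ZNF496 was lost in 7 of 16 alternatives, with filterByExpr, a minimum average of 3 log2 CPM, the exact test and limma-voom, without anastrozole replicate a, and without replicate b or c of the combination, and in these last 3 the log2 fold changes were 0.16, 0.25 and 0.32. That of CAB39L was lost in 3 of 16, with limma-voom and without replicate a of anastrozole (-0.24) or of the combination (-0.27).

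The other 4 of the 10 depended on the treatment of GC content in at least 1 comparison, and each also lost a call in other settings, as ZNF496 and CAB39L did. DOK7, an adaptor of the receptor kinase MuSK, rose against vehicle from 7.68, 6.08 and 5.91 to 9.38, 10.9 and 11.4 CPM (log2 fold change 0.68, adjusted p = 4.9e-06). Its log2 difference from E2 went from 0.43 (adjusted p = 0.0083) to 0.28 (adjusted p = 0.33) with the GC trend removed. That call was also lost without replicate c of E2 or of the combination (log2 differences 0.37 and 0.37). BMPR1B, a receptor for bone morphogenetic proteins, fell from 15.1, 14.1 and 15.2 to 9.501, 9.88 and 9.51 CPM (-0.62, adjusted p = 4.2e-07), and its difference from E2 likewise went from an adjusted p of 0.021 to 0.3, and was also lost without E2 replicate c (-0.27) and without replicate a or c of the combination (-0.34 and -0.34). Over the 16 alternatives its log2 difference from E2 lay between -0.39 and -0.26. CHCHD10, a mitochondrial protein gene, lost its call against E2 in the same way (adjusted p = 0.0031 and 0.29), with log2 differences between 0.25 and 0.43 over the 16 alternatives. Its call against vehicle (0.32, adjusted p = 0.04) was lost in 10 of 17 alternatives, among them the fits without vehicle replicate a (0.22) and without replicate a, b or c of the combination (0.28, 0.33 and 0.35). PRRT3 lost its difference from anastrozole with the GC trend removed (0.023 and 0.29) and in 10 of 16 alternatives in all, 5 of them fits that left out 1 library, replicate a or b of anastrozole or a, b or c of the combination. Over the 16 alternatives its log2 difference from anastrozole lay between 0.21 and 0.38. PRRT3 shares 40.5% of its exon bases with CRELD1 on the opposite strand, and reads of the pair cannot be told apart where counting ignored strand, which is not stated.

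**Figure D2:**
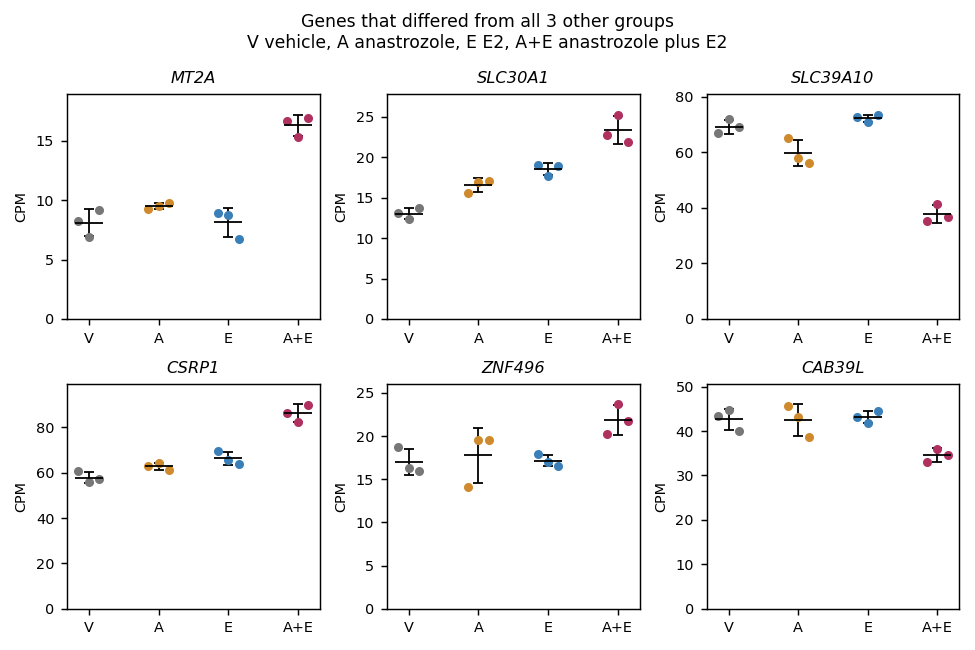
CPM (y axis, from 0) in each library (points, replicates a, b and c from left to right) of vehicle (V), anastrozole (A), E2 (E) and anastrozole plus E2 (A+E), with the mean and SD (bars, n = 3), for 6 genes whose combination libraries differed from all 3 other groups with and without the GC trend. In MT2A, SLC30A1 and CSRP1 the combination is the highest group, and SLC39A10 falls to 37.9 ± 3.24 CPM from 69.3 ± 2.49 CPM with vehicle.

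Of 36 estrogen-induced genes, all were tested, 21 were raised and 0 lowered (beside 2.71% and 2.33% of all genes tested), 15 did not pass, and the median log2 fold change was 0.19 against 0.00 over all tested genes. The number raised was 13 with DESeq2 and 12 with limma-voom. IGFBP4, which encodes a binding protein of insulin-like growth factors, had 516, 508 and 531 CPM with vehicle and 638, 616 and 637 CPM with the combination, log2 fold change 0.28 (standard error 0.03, adjusted p = 8.3e-15 in edgeR). The groups did not overlap, and anastrozole alone gave 518 ± 16.1 CPM against 518 ± 12 CPM with vehicle (SD, n = 3). OLFM1, which encodes the secreted protein olfactomedin 1, went from 287, 276 and 296 to 355, 342 and 357 CPM (0.30, adjusted p = 3.9e-14).

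GREB1, the estrogen receptor cofactor, had 508, 532 and 525 CPM with vehicle and 594, 598 and 585 CPM with the combination, a change of 0.18 ± 0.03 (log2 ± SE, adjusted p = 4.3e-06). RARA, a retinoic acid receptor, rose by 0.29 (adjusted p = 1.7e-08) and MYBL1, a transcription factor of the MYB family, by 0.27 (adjusted p = 1.1e-08) on the log2 scale. MYC stood at 43.1, 44.7 and 39.4 CPM with vehicle and 52.8, 54.98 and 53.04 CPM with the combination (0.34, adjusted p = 3.7e-07), and every library of the combination was above all 9 others, E2 alone giving 45.7, 45.8 and 45.5 CPM. MYC was therefore also among the 88 genes, with a direct difference of 0.23 from E2 (adjusted p = 0.002, and 0.0059 with the GC trend removed). CTSD, the gene of the lysosomal protease cathepsin D, was at 829.7, 780.1 and 824 CPM with vehicle and 894, 908 and 885 CPM with the combination (0.14, adjusted p = 0.00043), and was among the 16 that kept the 3 calls with the GC trend removed. 

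Not every classic estrogen target moved. PGR, the progesterone receptor gene, had 2038, 2352 and 2196 CPM with vehicle and 2033, 2256 and 2243 CPM with the combination, which overlap, and a log2 fold change of -0.01 (adjusted p = 0.93). TFF1, the trefoil factor gene, was scarce in this table, at 2.103, 1.22 and 1.63 CPM and 1.91, 1.81 and 1.36 CPM, and did not pass (adjusted p = 1). Among the 22 estrogen receptors, cofactors and hormone-metabolising enzymes, 0 were raised and 2 lowered (beside 2.71% and 2.33%), and SULT1E1 had no read in the 6 libraries. ESR1, the gene of the estrogen receptor itself, had 179.7, 188 and 179 CPM with vehicle and 169.7, 173 and 174 CPM with the combination and did not pass (-0.08, adjusted p = 0.25). HSD17B1, an enzyme that makes E2 from estrone, was 1 of the lowered genes (-0.20, adjusted p = 0.038), but its call was lost in 10 of its 17 alternatives, and 80.9% of its exon bases lie under the antisense gene HSD17B1-AS1.

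In the direct comparisons, 20 of the 36 estrogen-induced genes were higher with the combination than with anastrozole alone and 0 lower, beside 1.71% and 1.18% of all genes tested, with the same counts of 20 and 0 once the GC trend was removed (beside 1.16% and 1%). GREB1, for example, exceeded anastrozole by 0.32 (adjusted p = 1.6e-11, and 8e-16 with the GC trend removed) and RARA by 0.43 (adjusted p = 4e-14, and 1.4e-11 with the GC trend removed). Against E2 alone, 8 were higher and 1 lower (beside 3.23% and 3.51%), and these counts became 2 and 1 with the GC trend removed (beside 0.431% and 0.398%). GREB1 did not pass against E2 (0.06, adjusted p = 0.3, and 0.93 with the GC trend removed), and RARA did only before the GC trend was removed (0.14, adjusted p = 0.0074, and 0.81 with the GC trend removed).

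Most genes on a list of hypoxia effectors, and 12 of 22 on one of glucose uptake and glycolysis, were raised. Hypoxia-inducible factors are transcription factors whose alpha subunits are hydroxylated by the EGLN enzymes and degraded when oxygen is present, and many of their targets carry the letters ACGTG, the core of the hypoxia response element. Of 24 hypoxia effectors, 19 were raised and 0 lowered (beside 2.71% and 2.33%), with a median log2 fold change of 0.30. The number raised was 17 with DESeq2 and 16 with limma-voom. ERO1L (now ERO1A), an oxidoreductase that forms disulfide bonds in the endoplasmic reticulum, had 307, 336 and 331 CPM with vehicle and 436, 437 and 450.2 CPM with the combination, log2 fold change 0.44 (standard error 0.03, adjusted p = 3.8e-34 in edgeR). VEGFA, the vascular growth factor, had 191, 183 and 192 CPM and 238, 239.7 and 248 CPM (0.36, adjusted p = 2e-18). In both genes the groups did not overlap. ANGPTL4, an inhibitor of lipoprotein lipase, rose by 0.47 (adjusted p = 1.5e-16), WSB1, a ubiquitin ligase subunit, by 0.38 (adjusted p = 1.2e-19) and the mitochondrial protein gene FAM162A by 0.43 (adjusted p = 2.5e-14).

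Some effectors changed by more. LOX, the lysyl oxidase that cross-links collagen, had 4.93, 3.35 and 3.66 CPM with vehicle and 7.65, 8.004 and 7.36 CPM with the combination (0.95, adjusted p = 7.2e-08). CA9, the carbonic anhydrase of the cell surface, had 2.51, 2.36 and 1.94 CPM and 4.38, 4.11 and 4.36 CPM (0.92, adjusted p = 0.00036), with 35.7% of its exon bases shared with ARHGEF39 on the opposite strand. ANKRD37, among the 10 most raised genes, went from 8.17, 8.14 and 9.65 to 14.6, 13.01 and 12.6 CPM (0.64, adjusted p = 9.9e-07), and shares 40.3% of its exon bases with UFSP2 on the opposite strand. All 3 were higher in every library of the combination than in any vehicle library. LOX and CA9 were chosen after their values were seen.

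Among the genes of the factors themselves, HIF1A did not pass. HIF1A had 176, 191 and 186 CPM with vehicle and 186, 188 and 192 CPM with the combination, with groups that overlap and a log2 fold change of 0.04 (adjusted p = 0.73). Of the 10 factors and regulators, 2 were raised and 0 lowered (beside 2.71% and 2.33%), both of them prolyl hydroxylase genes. EGLN3 went from 9.14, 8.06 and 7.62 to 12.03, 11.1 and 12.3 CPM (0.51, adjusted p = 4e-04) and EGLN1 rose by 0.16 (adjusted p = 0.0054). The call of EGLN1 was lost with DESeq2 and with limma-voom. It was also lost without vehicle replicate a (log2 fold change 0.13) and without replicate b or c of the combination (0.15 and 0.15).

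Of 22 genes of glucose uptake and glycolysis, 12 were raised and 0 lowered (beside 2.71% and 2.33%), with a median log2 fold change of 0.15, or 0.14 with the gene at or under the floor, SLC2A3, placed below all others. PFKFB3, which makes the activator of phosphofructokinase fructose 2,6-bisphosphate, had the lowest adjusted p of the 2 lists. It stood at 244, 234 and 239 CPM with vehicle and 358, 354 and 354 CPM with the combination, and its log2 fold change was 0.57 (standard error 0.04, adjusted p = 1.1e-53 in edgeR). The 3 libraries of the combination were above all 9 others, with anastrozole at 253, 252 and 265 CPM and E2 at 318, 325 and 312 CPM. PFKFB3 exceeded anastrozole by 0.47 (adjusted p = 1.7e-23, and 8.9e-31 with the GC trend removed), and it exceeded E2 by 0.16 with an adjusted p of 5.6e-05 that became 0.066 with the GC trend removed.

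The enolase gene ENO2 rose by 0.44 (adjusted p = 3.6e-11), PDK1, a kinase that shuts off pyruvate dehydrogenase, by 0.30 (adjusted p = 4.2e-09) and PFKFB4, a paralog of PFKFB3, by 0.24 (adjusted p = 1.6e-06). GAPDH, often used as a reference gene, rose as well, from 2073, 1991 and 2037 to 2343, 2271 and 2233 CPM (0.17, adjusted p = 4e-06). GAPDH, ENO1, PGK1 and ALDOA have near-identical processed pseudogenes, so their counts are uncertain by however many reads the counting gave to these copies. Among the hypoxia effectors, 2 were higher and 5 lower with the combination than with E2 alone (beside 3.23% and 3.51% of all genes), which became 1 and 0 with the GC trend removed (beside 0.431% and 0.398%). Against anastrozole alone, 3 were higher and 0 lower (beside 1.71% and 1.18%), or 4 and 1 with the GC trend removed (beside 1.16% and 1%).

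The promoter of the gene with the lowest adjusted p of each of these lists is shown, from RefSeq on GRCh38.p14, over the same window and on the strand of the gene, with capitals for any ACGTG on either strand.
ERO1L, chr14:52695509-52695808, minus strand: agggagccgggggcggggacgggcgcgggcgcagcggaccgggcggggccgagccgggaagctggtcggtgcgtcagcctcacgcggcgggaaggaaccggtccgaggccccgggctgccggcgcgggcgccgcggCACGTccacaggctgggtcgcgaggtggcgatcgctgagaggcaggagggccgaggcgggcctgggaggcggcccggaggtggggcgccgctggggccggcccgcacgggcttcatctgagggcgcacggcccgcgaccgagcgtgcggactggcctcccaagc
PFKFB3, chr10:6144671-6144970, plus strand: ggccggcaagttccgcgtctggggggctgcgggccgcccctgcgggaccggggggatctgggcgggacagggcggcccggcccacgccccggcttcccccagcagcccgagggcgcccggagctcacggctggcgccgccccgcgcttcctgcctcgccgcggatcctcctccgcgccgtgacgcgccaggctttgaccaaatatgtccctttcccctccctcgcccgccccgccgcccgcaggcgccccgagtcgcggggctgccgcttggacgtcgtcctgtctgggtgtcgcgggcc
The ERO1L promoter held 1 match, at positions -114 to -110, and that of PFKFB3 held 0, which says only that these letters are not in this window. Of the raised hypoxia effectors, 16 had a promoter in the table and 12 of these held ACGTG, and of the raised glycolysis genes 7 of 12 did. Over all 35114 promoters the share was 21.4%. Across all members with a promoter, raised or not, 14 of 20 hypoxia effectors and 8 of 21 glycolysis genes held it.

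Part of the list of interferon-stimulated genes was lowered, 17 of 46, and the other 29 did not pass. These genes are activated at interferon-stimulated response elements by transcription factors that include IRF9. Of 46 genes, 0 were raised and 17 lowered (beside 2.71% and 2.33%), 42 of the 46 had a negative log2 fold change and the median was -0.22. The number lowered was 12 with DESeq2 and 8 with limma-voom. MX1, an antiviral GTPase, had 136, 143 and 138 CPM with vehicle and 89.4, 89.7 and 96.6 CPM with the combination, log2 fold change -0.60 (standard error 0.04, adjusted p = 1.5e-39 in edgeR). IFIT1, which binds foreign RNA, had 62.9, 58.2 and 57.3 CPM and 38.3, 34.7 and 40.3 CPM (-0.65, standard error 0.06, adjusted p = 5.8e-28). OAS2, a synthetase that activates RNase L, had 46.99, 50.03 and 49.5 CPM and 30.4, 33.2 and 35.1 CPM (-0.57, standard error 0.06, adjusted p = 1.2e-17). In these 3 genes every library of the combination was below every vehicle library. IFI6, an interferon-inducible mitochondrial protein gene, fell by 0.39 (adjusted p = 3.4e-17) and OAS3 fell by 0.28 (adjusted p = 6.1e-11) on the log2 scale.

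The signalling factors did not move as 1 group. Of 17, 2 were raised and 2 lowered (beside 2.71% and 2.33%). IRF9 had 58.5, 56.7 and 55.2 CPM with vehicle and 51.1, 48.6 and 50.1 CPM with the combination (-0.18, adjusted p = 0.019), a call lost in 3 of the 6 fits that left out 1 library. The kinase gene JAK1 rose by 0.23 (adjusted p = 1.4e-08) and IFNGR2, a subunit of the interferon gamma receptor, by 0.17 (adjusted p = 0.047), a call lost in 11 of 17 alternatives. Against anastrozole alone, 7 of the 46 interferon-stimulated genes were higher with the combination and 0 lower (beside 1.71% and 1.18% of all genes), 8 and 0 with the GC trend removed (beside 1.16% and 1%). MX1 had 76.7, 77.9 and 83.9 CPM with anastrozole, and the combination exceeded it by 0.21 (adjusted p = 0.0074, and 7.3e-06 with the GC trend removed). IFI6 exceeded its level with anastrozole by 0.34 (adjusted p = 9.9e-09, and 9.2e-09 with the GC trend removed). Against E2 alone, 1 was higher and 1 lower (beside 3.23% and 3.51%), or 0 and 1 with the GC trend removed (beside 0.431% and 0.398%). MX1 did not pass against E2 (0.01, adjusted p = 0.92, and 0.55 with the GC trend removed), and IFI6 was lower than with E2 only once the GC trend was removed (-0.10, adjusted p = 0.12, and 0.0043 with the GC trend removed).

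The promoter of MX1, the gene with the lowest adjusted p of this list, is shown with capitals for GAAANNGAA, the core of the interferon-stimulated response element, on either strand.
MX1, chr21:41420308-41420607, plus strand: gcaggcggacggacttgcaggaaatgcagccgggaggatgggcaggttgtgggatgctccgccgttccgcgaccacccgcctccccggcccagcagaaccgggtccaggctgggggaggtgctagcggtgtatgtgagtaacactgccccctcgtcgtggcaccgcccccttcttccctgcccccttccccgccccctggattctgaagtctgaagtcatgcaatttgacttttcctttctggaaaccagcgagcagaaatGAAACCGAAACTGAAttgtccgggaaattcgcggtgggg
It held 2 overlapping matches, at positions 12 to 20 and 18 to 26 after the start site. Of the 15 lowered genes with a promoter in the table, 12 held at least 1 match, and of all 39 members with a promoter 26 did, while the share over all promoters was 8.11%.

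Of 33 genes of sterol and fatty acid synthesis, 0 were raised and 13 lowered (beside 2.71% and 2.33%), 20 did not pass, and the median log2 fold change was -0.12. The number lowered was 13 with DESeq2 and 9 with limma-voom. FASN, the fatty acid synthase, went from 1205, 1156 and 1202 CPM to 972, 1023 and 985 CPM (-0.26, standard error 0.03, adjusted p = 8.7e-14 in edgeR). LSS, which closes the sterol rings of lanosterol, went from 288, 284 and 291 to 244, 238 and 232 CPM (-0.27, standard error 0.04, adjusted p = 2.6e-11). The groups did not overlap in either gene. MVD of the mevalonate pathway fell by 0.27 (adjusted p = 1.3e-09) and the sterol reductase TM7SF2 fell by 0.24 (adjusted p = 7e-09). SREBF1, the transcription factor of lipid synthesis, fell by 0.15 (adjusted p = 0.0058).

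This was the list with the most members lower with the combination than with E2 alone. Of the 33, 10 were lower and 2 higher than with E2 (beside 3.51% and 3.23% of all genes), and 10 and 0 with the GC trend removed (beside 0.398% and 0.431%). FDPS, which makes farnesyl diphosphate, had 431, 400.0 and 412 CPM with vehicle, 398, 407 and 406 CPM with E2 and 375, 349.9 and 348 CPM with the combination, a direct log2 difference of -0.17 from E2 (adjusted p = 5.2e-06, and 3.4e-12 with the GC trend removed). SC5D, a sterol desaturase, had 262, 256 and 258 CPM with E2 and 214, 217 and 209 CPM with the combination (-0.28, adjusted p = 1.7e-13, and 1.3e-05 with the GC trend removed). FDPS, SC5D and SREBF1 were chosen after their values were seen. Against anastrozole alone, 0 of the 33 were higher and 1 lower (beside 1.71% and 1.18%), or 2 and 2 with the GC trend removed (beside 1.16% and 1%). FASN itself has no promoter in the table, so that of LSS was searched for the sterol response element core TCACNCCAC, and neither it nor any of the 10 lowered genes with a promoter held it, while 1 of all 25 members with a promoter did, against 1.13% of all promoters.
LSS, chr21:46228725-46229024, minus strand: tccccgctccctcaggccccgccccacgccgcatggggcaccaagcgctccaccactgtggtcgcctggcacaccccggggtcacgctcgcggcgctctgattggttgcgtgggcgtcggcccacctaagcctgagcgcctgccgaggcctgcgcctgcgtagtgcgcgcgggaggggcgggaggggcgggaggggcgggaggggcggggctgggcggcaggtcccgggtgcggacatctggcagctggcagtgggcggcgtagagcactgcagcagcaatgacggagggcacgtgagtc

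**Figure D3:**
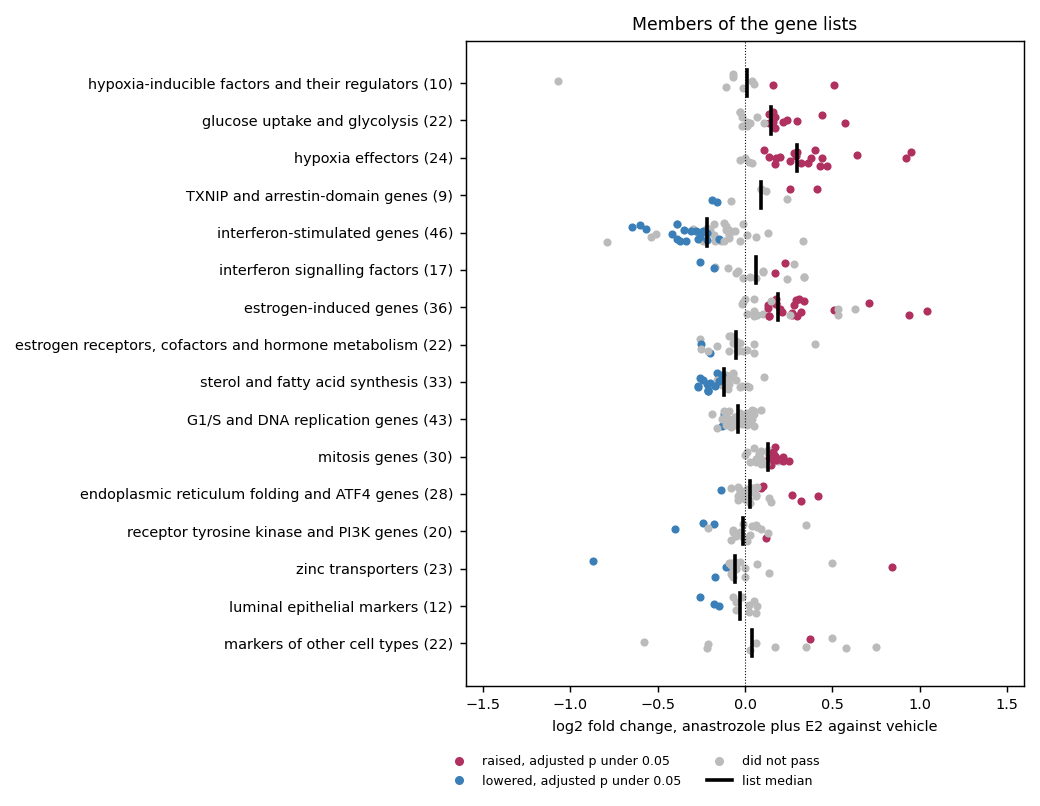
Log2 fold change of anastrozole plus E2 against vehicle (x axis) for the members of 16 gene lists (y axis, with the number tested), coloured by whether they passed an adjusted p of 0.05 in edgeR, with list medians as black bars; vertical scatter has no meaning. Members with at most 3 reads in each of the 6 libraries (18) are not drawn, 2 lie beyond the axis limit of 1.6, and the hypoxia effectors and estrogen-induced genes lie mostly to the right of 0 and the interferon-stimulated and sterol genes mostly to the left.

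**Figure D4:**
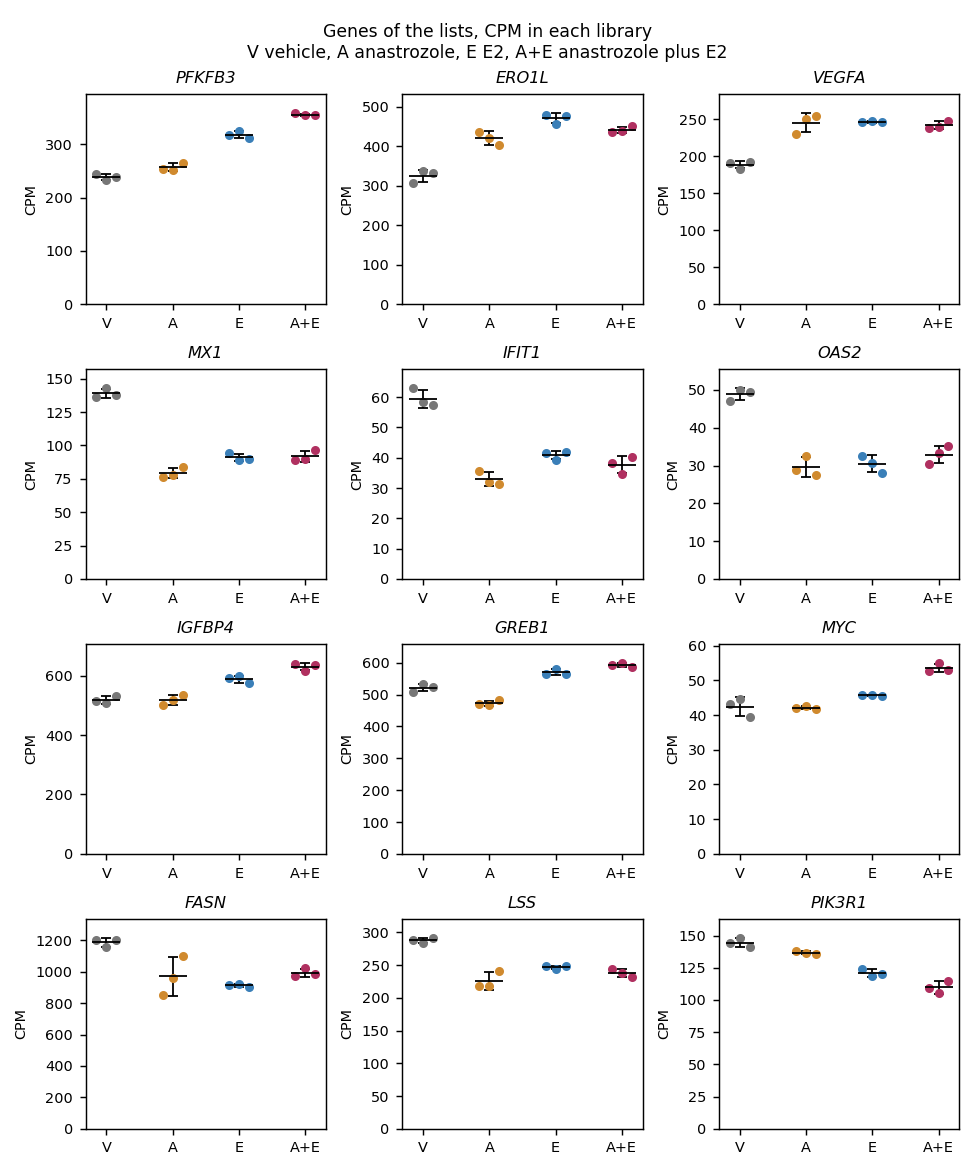
CPM (y axis, from 0) in each library (points, replicates a, b and c from left to right) for 12 genes of the lists in vehicle (V), anastrozole (A), E2 (E) and anastrozole plus E2 (A+E), with the mean and SD (bars, n = 3). PFKFB3, MYC and PIK3R1 have combination libraries outside the range of all other groups, while VEGFA averages 242 ± 5.33 CPM with the combination and 246 ± 1.05 CPM with E2, and MX1 91.9 ± 4.06 and 91.1 ± 2.9 CPM.

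Of 30 mitosis genes, 11 were raised and 0 lowered (beside 2.71% and 2.33%), 19 did not pass, all 30 had a positive log2 fold change and the median was 0.13. TPX2, a spindle assembly factor, had 221, 225 and 225 CPM with vehicle and 251, 249.6 and 264 CPM with the combination (0.19, adjusted p = 3.7e-05 in edgeR), and HMMR rose by 0.22 (adjusted p = 4.2e-05). CDK1, the kinase that drives entry into mitosis, rose by 0.17 (adjusted p = 0.00012), the kinesin gene KIF20A by 0.22 (adjusted p = 6e-04) and the topoisomerase gene TOP2A by 0.14 (adjusted p = 0.00075). The count of 11 became 6 with DESeq2 and 5 with limma-voom. Of 43 genes of G1/S and DNA replication, 0 were raised and 2 lowered, with a median of -0.04. That is 4.65% of the list, near the 5.04% of all genes tested, so it is no result about the list. The pair were the helicase subunit genes MCM4 (-0.12, adjusted p = 0.024) and MCM2 (-0.13, adjusted p = 0.034), and each call was lost in 4 of the 6 fits that left out 1 library.

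Among 20 receptor tyrosine kinase and PI3K genes, 1 was raised and 3 lowered (beside 2.71% and 2.33%), and the 3 became 1 with limma-voom. PIK3R1, the regulatory subunit of PI3 kinase, had 144, 148 and 141 CPM with vehicle and 109, 105 and 115 CPM with the combination, log2 fold change -0.40 (standard error 0.04, adjusted p = 5.7e-18 in edgeR). Its level was also below that with anastrozole alone (-0.32, adjusted p = 1.8e-08, and 1.8e-08 with the GC trend removed), while the difference from E2 (-0.14, adjusted p = 0.0085) did not pass with the GC trend removed (adjusted p = 0.6). PIK3R3 fell by 0.24 (adjusted p = 3.7e-06) and the receptor gene ERBB2 fell by 0.18 (adjusted p = 7e-05) on the log2 scale.

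Of 28 genes of protein folding in the endoplasmic reticulum and of the ATF4 response, 5 were raised and 1 lowered (beside 2.71% and 2.33%). Stress factor genes led, with ATF3 at 29.8, 26.9 and 30.2 CPM in vehicle and 38.5, 36.7 and 40.96 CPM in the combination (0.42, adjusted p = 1.9e-07) and DDIT3 raised by 0.32 (adjusted p = 7.6e-07). The asparagine synthetase gene ASNS rose by 0.27 (adjusted p = 0.00037), a call lost without replicate a of the combination (0.2). The chaperone gene HSPA5 was higher by 0.10 (adjusted p = 0.032), but this call was lost in each of the 6 fits that left out 1 library. SEL1L, of the degradation machinery, fell by 0.14 (adjusted p = 0.00091).

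The list of TXNIP and arrestin-domain genes, which curb glucose uptake and receptor signalling, had 2 of 9 raised and 2 lowered (beside 2.71% and 2.33%). TXNIP had 365, 361 and 371 CPM with vehicle and 438, 426 and 448 CPM with the combination (0.26, adjusted p = 2e-11), and was lower than with anastrozole alone by a log2 difference of -0.22 (adjusted p = 3.2e-05, and 3.2e-06 with the GC trend removed). The anastrozole libraries held 539.9, 508 and 480.3 CPM. Against E2, TXNIP did not pass (-0.08, adjusted p = 0.092, and 0.79 with the GC trend removed). ARRDC3 rose by 0.41 (adjusted p = 1.4e-14), and ARRDC1 (-0.19, adjusted p = 8.8e-05) and MLXIP (-0.16, adjusted p = 0.017) fell, MLXIP with a call lost in 4 of the 6 fits that left out 1 library. Of the 12 luminal markers, 3 were lowered and 0 raised (beside 2.33% and 2.71%), SPDEF (-0.26, adjusted p = 4.6e-10), CLDN4 (-0.18, adjusted p = 2.4e-05) and KRT7 (-0.15, adjusted p = 0.007). The 3 became 2 with DESeq2 and 1 with limma-voom. The call of KRT7 was lost with both of these tools, without vehicle replicate a or c and without replicate b or c of the combination, with log2 fold changes from -0.19 to -0.12 over its 17 alternatives.

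The remaining genes with the largest changes came from no single list. TNFAIP3, an inhibitor of NF-kB signalling, went from 7.52, 7.38 and 6.85 to 12.9, 13.1 and 13.7 CPM (0.87, adjusted p = 1.5e-11 in edgeR) and BIRC3, an inhibitor of apoptosis, from 27.3, 28.3 and 23.3 to 41.8, 45.4 and 38.03 CPM (0.67, adjusted p = 2.8e-19). TNFAIP3 did not pass against E2 (0.01, adjusted p = 1) or anastrozole (0.21, adjusted p = 0.39), nor with the GC trend removed (adjusted p = 1 and 0.41). BIRC3 exceeded anastrozole (0.26, adjusted p = 0.02, and 5.7e-05 with the GC trend removed) and did not pass against E2 (-0.09, adjusted p = 0.44, and 1 with the GC trend removed). The tubulin gene TUBB2B rose by 0.71, PLXDC1 by 0.66, the cell surface protein gene MDGA1 by 0.63 and the small nucleolar RNA host gene SNHG12 by 0.61, all of them past the threshold. MDGA1 also exceeded anastrozole alone by 0.58 (adjusted p = 5.4e-13, and 4.2e-12 with the GC trend removed), while its difference from E2 did not pass once the GC trend was removed (0.22, adjusted p = 0.0055, and 0.34 with the GC trend removed). On the lowered side, VTCN1, which encodes the T-cell inhibitory ligand B7-H4, went from 84.5, 89.1 and 83.7 to 52.5, 58.7 and 56.2 CPM (-0.62, adjusted p = 2.6e-32). It was also lower than with anastrozole alone (-0.49, adjusted p = 2.5e-13, and 2.8e-15 with the GC trend removed), which left it at 80.2, 81.2 and 73.3 CPM, and did not pass against E2 (-0.09, adjusted p = 0.35, and 0.81 with the GC trend removed). CCDC154 (-0.65), ZNF812 (-0.60), the pseudogene CYP4Z2P (-0.60) and the interferon-inducible helicase gene DDX60L (-0.59) completed the 10 most lowered. CYP4Z2P is close in sequence to CYP4Z1, and ZNF812 shares 91.7% of its exon bases with another annotated gene on the same strand, so their counts are uncertain. The same holds for EGLN1, IFI6, IRF9, ASNS and SLC39A1, which share more than 20% of their exon bases with another annotated gene on their own strand, and for CTSD, DDIT3, MCM2, ACTA2 and CCDC154, which share as much with a gene on the opposite strand.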

How the data were processed

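RNA-seq counts per gene were analysed. The authors aligned reads to hg19 with TopHat2 2.0.14 and Bowtie2 2.2.6 and deposited raw counts per gene made with HTSeq, whose version, strand setting and annotation are not given in the sources used here. The labels call the molecule polyA RNA and the protocol describes total RNA. Groups came from the labels. Summary rows, which held 66.5% to 67.3% of the reads of the 6 libraries, were left out. The main test was edgeR 4.0.16's robust quasi-likelihood test with TMM (R 4.3.3) on the 6 libraries of the 2 groups compared, without genes at 0 in all 12 libraries. Alternatives used DESeq2 1.42.0 and limma 3.58.1. For GC content, a lowess trend (span 0.5) was subtracted as an offset. The test was checked on data simulated with the same fixed spread for every gene, which was not matched to these libraries. There it missed most of the small changes, and the check does not give the sensitivity in the real data. A gene that did not pass is not shown to be unchanged. Named genes were the 10 largest per direction (adjusted p under 0.05, at least 3 log2 CPM, groups separate), up to 5 per list by adjusted p with 12 genes of known role, the 10 leading genes that differed from all 3 groups, and list members at 0; some of these are not reported here. The genes and lists were chosen with earlier results of these data known. Positions are GENCODE's on GRCh37. By symbol 21539 genes matched, and 1498 more by an older symbol through RefSeq's GRCh38.p14 table.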

Additional observations from a re-analysis of the deposited data

How the results depend on the processing

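The count of genes for the combination against vehicle, 1065, was 463 with the DESeq2 test and 347 with limma-voom, and ranged from 682 to 964 when 1 library was left out. It stayed within 1.5 times the main count with DESeq2 size factors, library size alone, filterByExpr, a minimum average of 3 log2 CPM, the exact test, all 12 libraries in 1 fit and, chosen after seeing the data, with the GC trend removed (1254) or removed together with the block (1590). Against E2, 1424 became 647 with the DESeq2 test, 451 with limma-voom, 824 with all 12 libraries, 175 with the GC trend removed and 186 with the GC trend removed and the block, and ranged from 885 to 1176 when 1 library was left out. Against anastrozole, 612 became 296 with filterByExpr, 302 with a minimum average of 3 log2 CPM, 236 with the DESeq2 test, 324 with the exact test and 90 with limma-voom, and ranged from 234 to 1706, the highest without anastrozole replicate c and the lowest without replicate c of the combination. Same-lettered libraries of vehicle and the combination deviated together with correlations of 0.11, 0.07 and 0.02 for a, b and c, those of E2 and the combination with 0.28, 0.04 and 0.14, and those of anastrozole and the combination with 0.31, 0.04 and 0.11. None of these sets had all 3 above 0.1, so the letters were not taken as pairs. Fitted with a replicate block, the counts were 1439 against vehicle, 1487 against E2 and 620 against anastrozole. Of 88 named genes past the threshold against vehicle, 63 kept their call in every alternative in which they were tested, 25 lost it in at least 1 and 14 of these when 1 library was left out, and none changed direction. The cause of these differences was not tested. Depth limits the genes near the floor of 3 reads, such as CYP19A1, for which a difference was not detectable.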

Other observations

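Among genes known as targets of NF-kB, a list of 24 written after the values of IL32, TNFAIP3 and BIRC3 had been seen, 7 were raised and 0 lowered by the combination, beside 2.71% and 2.33% of all genes tested. Without the 3 genes that prompted the list, 4 of 21 were raised and 0 lowered. IL32, which encodes a cytokine-like protein, averaged under 3 log2 CPM and so was outside the rule for named genes; its counts gave 3.397, 3.73 and 4.12 CPM with vehicle and 10.6, 11.3 and 10.9 CPM with the combination, log2 fold change 1.53 (standard error 0.14, adjusted p = 1.1e-24 in edgeR). The precursor gene NFKB2 rose by 0.33 (adjusted p = 9.9e-11), the adhesion molecule gene ICAM1 by 0.35 (adjusted p = 0.0015) and TNFAIP2 by 0.21 (adjusted p = 0.00023), the chemokine gene CCL20 being the fourth of these (0.89, adjusted p = 0.036), while NFKBIA, the inhibitor that NF-kB induces fastest, had a log2 fold change of 0.09 (adjusted p = 0.44). IL32 did not differ past the threshold from E2 alone (0.28, adjusted p = 0.12, and 0.61 with the GC trend removed) or from anastrozole alone (0.17, adjusted p = 0.59, and 0.82).

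A second list of 18 metallothionein and metal-responsive genes was also written after MT2A had been seen, and 14 of them were tested. Without MT2A, 3 of the other 13 were raised and 0 lowered, beside 2.71% and 2.33% of all genes tested. The 3 were FTH1, FTL and CSRP1. CSRP1 is also among the genes described above, so the count is only a description. The other metallothioneins were scarce in these cells. MT1X had 0.485, 0.456 and 0.856 CPM with vehicle and 1.48, 1.18 and 1.22 CPM with the combination, groups that do not overlap, with a log2 fold change of 1.11 and an adjusted p of 0.066. MT1F had 2.26, 0.988 and 1.01 CPM and 1.85, 1.74 and 1.72 CPM (adjusted p = 0.67), and MT1E had no read in the 6 libraries. Metallothionein genes are near-identical copies, so reads may have been split or lost among them. MTF1, the metal-sensing factor, had a log2 fold change of 0.08 (adjusted p = 0.65) and HMOX1, a gene of oxidative and heavy metal stress, one of 0.00 (adjusted p = 1). The ferritin genes rose, FTH1 by 0.25 (adjusted p = 8.3e-13) and FTL by 0.23 (adjusted p = 1.4e-06), with processed pseudogenes of both that could share reads and 63.2% of the exon bases of FTH1 shared with BEST1 on the opposite strand, while the transferrin receptor gene TFRC had a log2 fold change of 0.04 (adjusted p = 0.57).

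SERPINA3, SLC38A2 and DST were also among the 16 genes that differed from vehicle, E2 and anastrozole with the GC trend removed, SERPINA3 higher and the other two lower with the combination.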
